A study of Mus musculus with 20 samples.

Results

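The genes described here are 10 early response transcription factor and early response genes: the AP-1 subunits Fos, Fosl1, Fosl2, Jun, Junb and Jund, the zinc finger factor Egr1, the early response genes Ier2 and Ier3, and Myc. They were picked by name, and their probes were found through the accession printed for each probe on the array. Of the 10 genes, 9 were measured among 18738 genes tested. Fosl1, which codes for the FOS relative FRA-1, was not well above background on any of the 20 arrays (scaled signal 3.46 to 7.81) and was not tested. Fosl2 had 2 probes, of which the brighter was used, because the other was well above background on only 2 arrays. The other members had 1 probe each.

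Early response genes are transcribed within minutes of a stimulus from factors already present in the cell, such as serum response factor with its ELK partners and CREB, which are switched on by ERK and other kinases. FOS and JUN proteins join into AP-1 dimers that bind DNA. Most FOS proteins need a JUN partner, whereas JUN proteins can also pair among themselves and with ATF proteins. EGR1 acts through GC-rich sites and induces its own corepressor NAB2, and MYC binds E-boxes as a dimer with MAX, a partner for which the MXD proteins and MNT compete. p65/RelA is the main activating subunit of NF-kB, a factor known to act on several early genes, among them Myc and Ier3.

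Total RNA was labelled with Cy3 from a murine B16 line that carries Bcr-Abl. B16 is a melanoma line, and the labels give the strain as mouse C3H eOuJ for every sample. The cells had been transfected with void plasmid (titled Blanck, 3 arrays), wild-type p65/RelA (WT, 3), the D361E form that cannot be cleaved at residue 361 (3), a fragment of p65/RelA that spans residues 1 to 361 (N-fragment, 3), one that spans 362 to 549 (C-fragment, 3), or both fragments together (N+C, 5). All 6 groups therefore share the host line, its Bcr-Abl and its own Rela gene. The labels name neither the promoter of the plasmids nor the share of cells that took them up, nor whether the arrays of a group came from separate cultures, so a p-value here reflects only how far these arrays vary, which may be technical.

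The melanocyte identity of the line was seen on every array, where 9 of 9 melanocyte markers were well above background (summed scaled signal 1170000 to 1510000). Of 8 haematopoietic markers 2 were measured (Cd3e and Itgam), while Ptprc, Cd79a, Spi1, Cd34 and Vav1 stayed at background, and 0 of 4 epithelial markers were measured. Of 6 fibroblast markers 3 were measured, with a summed signal of 72.4 to 115 in void, 595 to 627 with the N-fragment and 44.1 to 244 in the other groups, and with Pdgfrb, Dcn and Lum at background throughout. Between 51.1 and 57.9% of the spots of an array were well above background. The 5 N+C arrays fell into arrays 16 to 18 and arrays 19 and 20 for several early genes. The labels do not mention this split, and it does not follow the slides, since arrays 16 and 19 lay on the same one. N+C results for the early genes against void are given for all 5 arrays and for each set. The measured fibroblast markers were split as well: Col1a1 read 16.2 to 20.1 on arrays 16 to 18 and 170 to 184 on arrays 19 and 20, and Pdgfra 21.3 to 24.6 and 50.9 to 53.5. Against void, 0 of the 3 were called higher and 2 lower with the first set, and 2 higher and 0 lower with the second, and their part in the split was not tested. The scaled signal is the array signal after each array was brought to a common 75th percentile.

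With each construct, some of the early genes were called against void. A gene was called higher or lower at a Benjamini-Hochberg adjusted p under 0.05 over all genes in limma, and each difference is a log2 value ± its standard error. With the N-fragment 4 of the 9 measured members rose (Fosl2, Junb, Egr1 and Myc) and 2 fell (Jund and Ier3), where 31.1% of all genes were called. With N+C 4 rose (Fos, Fosl2, Egr1 and Myc) and 2 fell (Jund and Ier3), where 24.6% of all genes were called. With WT 1 rose (Egr1) and 2 fell (Jun and Jund), against 9.39% of all genes. These WT calls were all lost with slide as a block and without void replicate 2. With D361E 1 rose (Junb) and 4 fell (Fos, Jun, Jund and Myc), against 13.5% of all genes. With the C-fragment 0 rose and 3 fell (Jun, Jund and Ier3), against 13.1% of all genes. In limma without adjustment, Egr1 alone was higher with the C-fragment at a p under 0.05. These 5 comparisons use the same void arrays, so their results are not independent of one another. In RNA from bulk cultures, fewer cells that express a gene and less RNA per cell cannot be told apart.

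**Figure D1:**
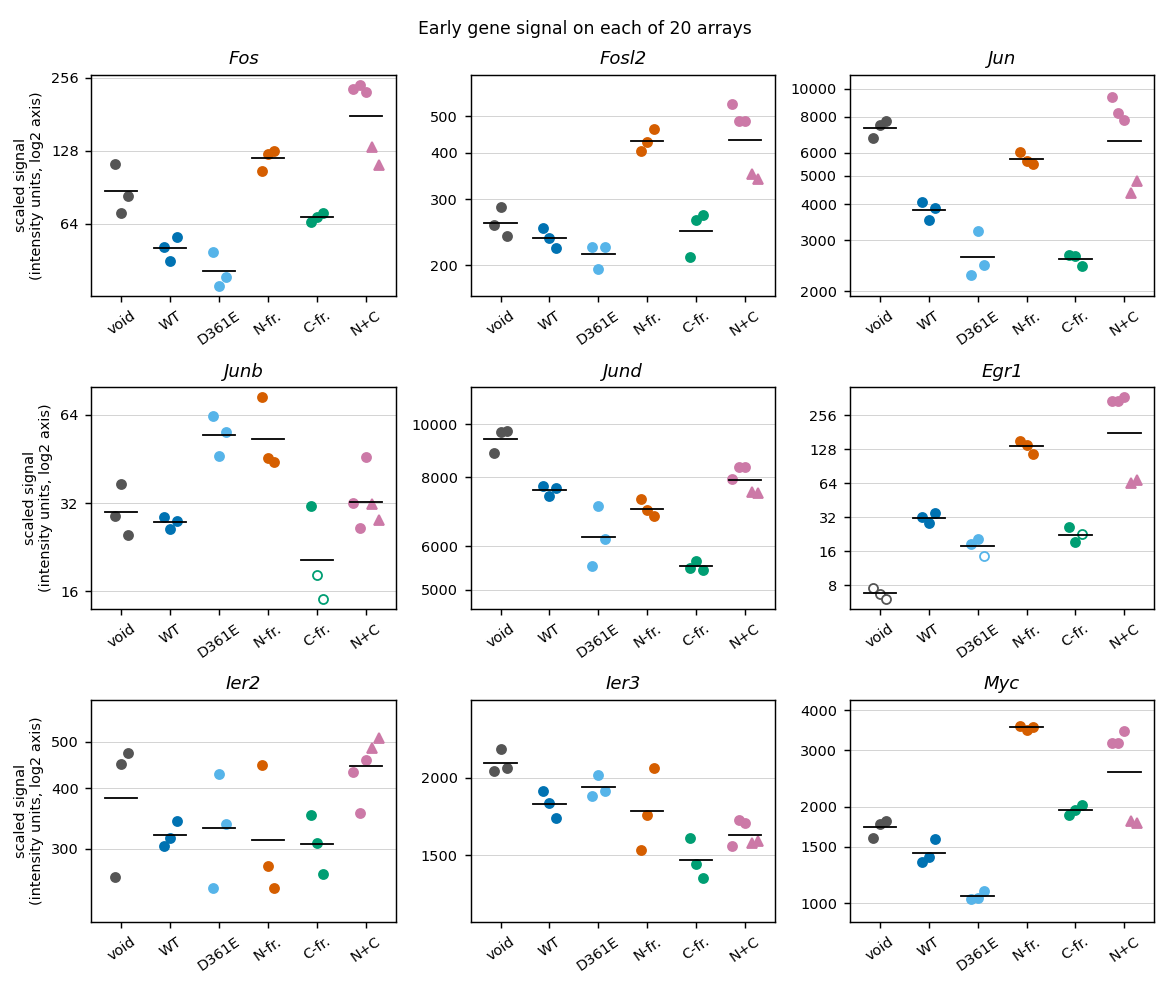
Scaled signal of the 9 measured early genes on each of 20 arrays, on a log2 axis whose range differs between panels. Each point is 1 array, triangles are arrays 19 and 20 of N+C, open points were not well above background, and the line is the geometric mean of the group; for Egr1 the void arrays lie at 6.08 to 7.54 and arrays 16 to 18 at 339 to 367.

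Fos, the founding AP-1 subunit, was lowest with full-length p65 and highest with both fragments. Its scaled signal was 113, 71.1 and 83.4 in the void arrays, 51.2, 44.8 and 56.2 with WT, and 48.9, 35.4 and 38.6 with D361E. All WT and D361E arrays lay below every void array. The signal was 106, 124 and 128 with the N-fragment, 65.2, 68.1 and 70.6 with the C-fragment, and 231, 240 and 223 on arrays 16 to 18 of N+C against 132 and 112 on arrays 19 and 20. The N-fragment arrays overlapped the void arrays, as did array 20. Fos fell with D361E (2.16-fold, log2 -1.11 ± 0.26, adjusted p = 0.00862) and rose with N+C (2.04-fold, log2 1.03 ± 0.23, adjusted p = 0.0038). The difference was not called with WT (log2 -0.79 ± 0.26, adjusted p = 0.0676), the N-fragment (log2 0.44 ± 0.26, adjusted p = 0.222) or the C-fragment (log2 -0.37 ± 0.26, adjusted p = 0.391). With slide as a block the WT difference was called (log2 -1.10, adjusted p = 0.0127). On the 1 slide that held both groups it was -1.33. With arrays 16 to 18 alone N+C exceeded void by 1.40 ± 0.15 (adjusted p = 7.05e-06), and with arrays 19 and 20 alone by 0.47 ± 0.18 (adjusted p = 0.0732), so the N+C call rests on the first set. After normexp background correction of median spot signals and quantile normalization, named normexp below, the D361E call was lost (log2 -0.34, adjusted p = 0.0776). The N+C call was lost when only N+C and void were fitted (adjusted p = 0.0766). Against WT, Fos was higher with the N-fragment (2.36-fold, adjusted p = 0.00182) and with N+C (3.54-fold, adjusted p = 3.06e-05), where both sets kept the call (log2 2.19 with arrays 16 to 18 and 1.27 with arrays 19 and 20).

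Fosl2, which codes for FRA-2, differed between the constructs that contain the free N-fragment and all others. The void arrays read 256, 286 and 239, against 251, 236 and 222 with WT, 224, 195 and 224 with D361E, and 210, 264 and 273 with the C-fragment. It was 404, 426 and 464 with the N-fragment, 539, 487 and 486 on arrays 16 to 18, and 351 and 340 on arrays 19 and 20. No array with the N-fragment, alone or in N+C, overlapped any array of the other 4 groups. Against void the gain was 1.66-fold with the N-fragment (log2 0.73 ± 0.16, adjusted p = 0.00222) and 1.67-fold with N+C (log2 0.74 ± 0.14, adjusted p = 0.00124). It stayed called with arrays 16 to 18 alone (log2 0.95 ± 0.10) and with arrays 19 and 20 alone (log2 0.41 ± 0.12, adjusted p = 0.0193). Differences from void were -0.14 ± 0.16 with WT, -0.28 ± 0.16 with D361E and -0.07 ± 0.16 with the C-fragment, and none was called. In the order of the 6 levels, N+C and the N-fragment were neighbours that did not differ (log2 0.01, adjusted p = 0.981), and the step from the N-fragment to void was the only called one.

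The promoters of both FOS genes are shown because their windows held the most motif matches. RefSeq windows of GRCm38.p6, 250 bases before to 50 after the start, were at hand for 6 of the members (Fos, Fosl2, Jun, Junb, Jund and Ier3). Both strands were searched. The kappa B element, which NF-kB binds, was found in 3 of the 6 windows (Fos, Fosl2 and Ier3) and in 8.46% of all 32851 windows. The CRE core TGACG was found in 2 of 6 (Fos and Junb) and in 20.8% of all, and the EGR element GCGNGGGCG in 1 of 6 (Fosl2) and in 5.55% of all. The AP-1 element TGANTCA (7.81% of all windows), the full CRE TGACGTCA, which contains the core (1.79%), the E-box CACGTG (7.15%) and the serum response element (1.63%) matched 0 of the 6. The windows of Jun and Jund, which were also called with p65 constructs, held no match of these motifs. A match describes these letters only and shows no binding. Elements more than 250 bases before the start lie outside the windows and could not be found. The stretches of Fos at chr12:85473668-85473836 (plus strand) and Fosl2 at chr5:32136282-32136409 (plus strand) follow, 5′ to 3′, with matches in capitals: first the kappa B element, then 2 CRE cores in Fos and the EGR element in Fosl2.
Fos: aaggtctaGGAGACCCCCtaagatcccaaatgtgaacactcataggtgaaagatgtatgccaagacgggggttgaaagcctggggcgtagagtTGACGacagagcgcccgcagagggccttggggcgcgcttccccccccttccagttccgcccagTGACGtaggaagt
Fosl2: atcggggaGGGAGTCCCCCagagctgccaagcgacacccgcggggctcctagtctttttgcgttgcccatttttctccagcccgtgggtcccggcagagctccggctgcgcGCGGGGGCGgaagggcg
The kappa B match began 214 bases before the start in Fos and 182 in Fosl2, where a second match began 181 bases before it, and the CRE cores of Fos began 129 and 66 bases before it.

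Jun, the main DNA-binding partner in AP-1, fell with WT, D361E and the C-fragment. Scaled signals were 6750, 7500 and 7720 in void, 4050, 3530 and 3870 with WT, 2270, 3220 and 2460 with D361E, and 2670, 2640 and 2440 with the C-fragment. All arrays of these 3 constructs lay below every void array. It was 6060, 5610 and 5480 with the N-fragment, 9320, 8220 and 7770 on arrays 16 to 18, and 4350 and 4800 on arrays 19 and 20. Jun fell with WT (1.92-fold, log2 -0.94 ± 0.23, adjusted p = 0.0164), D361E (2.79-fold, log2 -1.48 ± 0.23, adjusted p = 0.000368) and the C-fragment (2.83-fold, log2 -1.50 ± 0.23, adjusted p = 0.000468). The WT call was lost without void replicate 2, void replicate 3 or WT replicate 2 (adjusted p 0.0566 to 0.0667) and with slide as a block (log2 -0.98, adjusted p = 0.0546), normexp (log2 -0.74, adjusted p = 0.0538) or no scaling (log2 -0.54, adjusted p = 0.0654). The N-fragment difference was -0.36 ± 0.23 (adjusted p = 0.272). For N+C it was -0.15 ± 0.20 (adjusted p = 0.669) over all arrays, 0.20 ± 0.11 (adjusted p = 0.199) with arrays 16 to 18 alone and -0.68 ± 0.12 (adjusted p = 0.00136) with arrays 19 and 20 alone. The lower Jun level was thus called in 1 of the 2 sets, and the mean over all 5 N+C arrays lies between its 2 sets. Against WT, Jun was higher with N+C (1.73-fold, adjusted p = 0.0102), a call that was lost without arrays 16 to 18 (log2 0.26, adjusted p = 0.134), without WT replicate 2 (log2 0.74, adjusted p = 0.05) and with only those 2 groups in the fit (adjusted p = 0.0988).

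Jund, a JUN protein that is kept at a steady level in many cell types and is not strongly inducible, was lower than void in all 5 construct groups. The arrays read 8880, 9660 and 9720 in void, 7730, 7410 and 7640 with WT, 5520, 7110 and 6170 with D361E, 7300, 6970 and 6800 with the N-fragment, and 5480, 5630 and 5430 with the C-fragment. On the N+C arrays it was 7960, 8340 and 8340, then 7530 and 7490. No construct array reached the lowest void array, and the split of the N+C arrays was small here. The fall was largest with the C-fragment (1.71-fold, log2 -0.77 ± 0.08, adjusted p = 1.08e-05), followed by D361E (1.51-fold, log2 -0.59 ± 0.08, adjusted p = 7.68e-05) and the N-fragment (1.34-fold, log2 -0.42 ± 0.08, adjusted p = 0.000553). It was 1.24-fold with WT (log2 -0.31 ± 0.08, adjusted p = 0.019) and 1.19-fold with N+C (log2 -0.25 ± 0.07, adjusted p = 0.0152). The WT difference turned to 0.09 (adjusted p = 0.363) in the deposited values without scaling, and its call was lost with slide as a block (adjusted p = 0.0629) and without void replicate 2, void replicate 3, WT replicate 2 or WT replicate 3 (adjusted p 0.053 to 0.0786). The N+C call was lost without void replicate 2 (adjusted p = 0.0657), without void replicate 3 (adjusted p = 0.0636) and without arrays 19 and 20 (log2 -0.20, adjusted p = 0.0528). Without scaling the N-fragment and N+C differences shrank to -0.09 and -0.03 and were not called, and after normexp the WT difference was -0.10 (adjusted p = 0.542). Against WT, Jund was lower with the C-fragment (1.38-fold, log2 -0.46 ± 0.08, adjusted p = 0.0026), the single member called in that comparison, where 4.44% of all genes were called (2.35% lower).

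Junb, an AP-1 subunit that can oppose JUN, was a dim probe and followed another order from Jun and Jund. Void arrays gave 29, 37.1 and 24.8, against 28.7, 26.1 and 27.8 with WT, 63.3, 46.2 and 56 with D361E, and 73.3, 45.5 and 44.1 with the N-fragment. With the C-fragment it was 31.2, 18.2 and 15.1, of which only the first was well above background. The N+C arrays read 31.9, 26.4, 45.9, 31.7 and 28, and overlapped void. Junb rose with D361E (1.83-fold, log2 0.87 ± 0.27, adjusted p = 0.0391) and by 1.77-fold with the N-fragment (adjusted p = 0.0267, log2 0.82 ± 0.27). Both calls were weak. With slide as a block they were lost (adjusted p = 0.0608 and 0.0832). The D361E call was also lost without void replicate 1, void replicate 3, D361E replicate 1 or D361E replicate 3 (adjusted p 0.0965 to 0.134), and the N-fragment call without void replicate 1, void replicate 3 or N-fragment replicate 1 (adjusted p 0.0655 to 0.128). Junb was the single member called between D361E and WT (log2 0.99 ± 0.27, adjusted p = 0.0464), where 4.21% of all genes were called (2.42% higher). That call was lost when any 1 of the 6 arrays was left out (adjusted p 0.0641 to 0.152) and with slide as a block (adjusted p = 0.0818). The stretch of the Junb promoter with its CRE core in capitals lies at chr8:84978842-84978862 (minus strand).
Junb: cctgacagTGACGcgagccgc

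**Figure D2:**
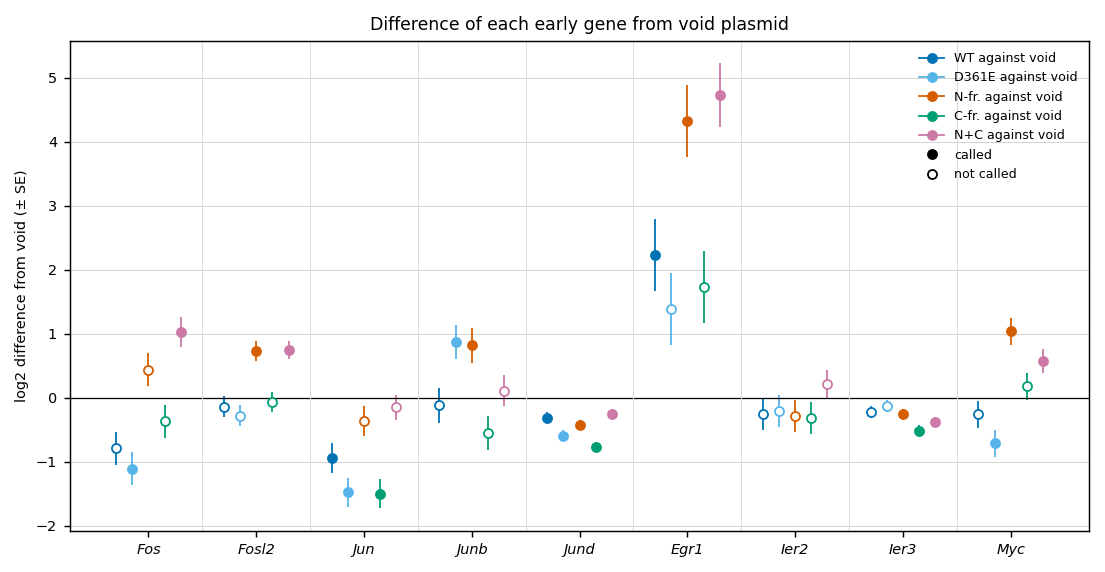
Log2 difference of each early gene from void for the 5 constructs, with bars of 1 standard error. Filled points were called at an adjusted p under 0.05 and open points were not; Jund lies below 0 for all 5 constructs, and Egr1 reaches 4.32 with the N-fragment and 4.73 with N+C.

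Egr1, a factor induced by growth signals, showed the widest range of the 9 measured members. It was not well above background on any of the 3 void arrays (scaled signal 7.54, 6.75 and 6.08). It was 31.8, 28.5 and 35.1 with WT, 18.6, 20.5 and 14.5 with D361E and 26, 19.4 and 22.5 with the C-fragment, with 2 of 3 arrays well above background in each of the last 2 groups. It was 152, 139 and 117 with the N-fragment, 339, 341 and 367 on arrays 16 to 18, and 63.7 and 68.2 on arrays 19 and 20. No construct array overlapped void, and the N-fragment arrays lay between the 2 sets of N+C arrays. Because void was at background, folds against it are lower bounds, set against the lowest signals that count as above background on the void arrays. Egr1 was at least 9.51-fold higher with N+C (log2 4.73 ± 0.50, adjusted p = 5.96e-06), at least 7.19-fold higher with the N-fragment (log2 4.32 ± 0.56, adjusted p = 2.36e-05) and at least 1.68-fold higher with WT (log2 2.23 ± 0.56, adjusted p = 0.0206). After normexp the fitted differences were smaller, at 1.55 with N+C and 1.25 with the N-fragment, and both were still called. The WT call was lost after normexp (log2 0.35, adjusted p = 0.509), with slide as a block (log2 1.83, adjusted p = 0.0972) and without void replicate 2, void replicate 3 or any 1 of the WT arrays (adjusted p 0.0553 to 0.0737). It was not called with the C-fragment (at least 1.19-fold, log2 1.73 ± 0.56, adjusted p = 0.0544) or D361E (log2 1.39 ± 0.56, adjusted p = 0.126), and no bound above 1 could be given for D361E.

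The size of the Egr1 error came mostly from the N+C arrays. The pooled standard deviation within groups was 0.72 log2 units over all groups and 0.20 without N+C. The same was seen for Myc (0.26 against 0.08), Jun (0.29 against 0.14) and Fos (0.33 against 0.21), but not for Junb (0.34 against 0.35) or Jund (0.09 in both). In a fit without the N+C arrays, chosen with the split known, Egr1 was called against void with WT (adjusted p = 2.96e-06), D361E (adjusted p = 6.7e-05) and the C-fragment (adjusted p = 1.68e-05). Since void was at background, these calls give a direction, and the lower bounds above still hold for its size, with none for D361E. In that fit 5 members were called for WT (15.4% of all genes), 6 for D361E (20% of all genes), 6 for the N-fragment (37.5% of all genes) and 4 for the C-fragment (20% of all genes). Fos and Myc were added for WT (adjusted p = 0.0082 and 0.0234), and Jun replaced Ier3 for the N-fragment (log2 -0.36, adjusted p = 0.027). D361E then differed from WT in 5 members, against 8.55% of all genes: Junb was higher, and Jun (log2 -0.54 ± 0.11), Jund (log2 -0.28 ± 0.08), Egr1 (log2 -0.84 ± 0.15) and Myc (log2 -0.45 ± 0.07) were lower.

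Both sets of N+C arrays were above void for Egr1, by at least 18.5-fold (arrays 16 to 18, adjusted p = 2.63e-12) and at least 3.5-fold (arrays 19 and 20, adjusted p = 3.36e-08). For Myc only the first set was. With arrays 16 to 18 alone 33.7% of all genes were called against void, and with arrays 19 and 20 alone 28.3%. Arrays 19 and 20 resembled the first set for Ier3 (log2 -0.42 and -0.36) and Fosl2 in direction and call. The 2 sets were not tested against each other, since the split was found in these data and is not in the labels.

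**Figure D3:**
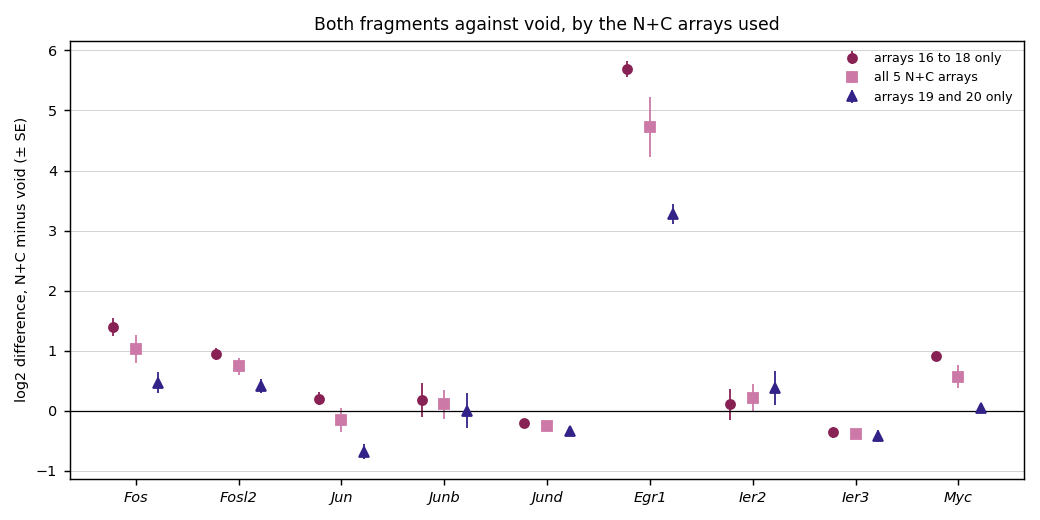
Log2 difference between N+C and void for each early gene, using arrays 16 to 18 (circles), all 5 N+C arrays (squares) or arrays 19 and 20 (triangles), with bars of 1 standard error. Jun lies at 0.20 with the first set and -0.68 with the second, and Myc at 0.92 and 0.05.

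Myc, which drives growth and ribosome production, was highest with the N-fragment and lowest with D361E. Its scaled signal was 1600, 1770 and 1810 in void, 1340, 1390 and 1590 with WT, and 1030, 1040 and 1090 with D361E. It was 3580, 3470 and 3550 with the N-fragment and 1890, 1950 and 2020 with the C-fragment. The N+C arrays read 3170, 3170 and 3440, then 1800 and 1780. Arrays 16 to 18 were thus near the N-fragment arrays and arrays 19 and 20 within the range of void. Myc was called 2.05-fold higher with the N-fragment (log2 1.04 ± 0.21, adjusted p = 0.00114) and fell with D361E (1.64-fold, log2 -0.71 ± 0.21, adjusted p = 0.0309). The D361E call was lost without any 1 void or D361E array (adjusted p 0.0519 to 0.0859) and with slide as a block (adjusted p = 0.0577). It was lost without scaling too (log2 -0.56, adjusted p = 0.108), while in the fit without N+C the adjusted p was 1.97e-05. Over all 5 N+C arrays Myc was called higher (1.49-fold, log2 0.57 ± 0.19, adjusted p = 0.0334), but arrays 19 and 20 alone gave 0.05 ± 0.07 (adjusted p = 0.626) and arrays 16 to 18 alone gave 0.92 ± 0.07 (adjusted p = 9.14e-08). That call was also lost with slide as a block (adjusted p = 0.0586) and without any 1 void array or any 1 of arrays 16 to 18 (adjusted p 0.0641 to 0.111). Against WT, Myc was higher with the N-fragment (2.46-fold, adjusted p = 0.000186) and with N+C (1.78-fold, adjusted p = 0.00374), and both sets of N+C arrays kept that call (log2 1.18 and 0.32).

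Ier3, a target of NF-kB that affects cell survival, fell slightly. Its scaled signal was 2050, 2220 and 2070 in void, 1900, 1820 and 1720 with WT, 1870, 2020 and 1900 with D361E, 1530, 1740 and 2070 with the N-fragment, and 1600, 1450 and 1380 with the C-fragment. The N+C arrays read 1550, 1710, 1690, 1570 and 1580. All WT, D361E, C-fragment and N+C arrays lay below every void array, while 1 N-fragment array was as high as void. The WT and D361E differences (log2 -0.22 and -0.13) were not called. Ier3 fell with the C-fragment (1.43-fold, log2 -0.52 ± 0.09, adjusted p = 0.00154) and N+C (1.30-fold, log2 -0.38 ± 0.08, adjusted p = 0.00261), and without scaling neither was called (log2 -0.28 and -0.17). The N-fragment call (log2 -0.26 ± 0.09, adjusted p = 0.041) turned to 0.08 without scaling, and was lost without any 1 void array, N-fragment replicate 1 or N-fragment replicate 2 (adjusted p 0.0573 to 0.2). The stretch of the Ier3 promoter with its kappa B match in capitals lies at chr17:35821613-35821638 (plus strand).
Ier3: cgaagggcGGAGTTCCCCccggcccg

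Ier2, a nuclear early response gene, was called in 0 of 15 comparisons between groups in the main limma fit, and 2 of these had an unadjusted p under 0.05 (N+C against each fragment). With only N+C and WT in the fit, it was called higher with N+C (log2 0.47, adjusted p = 0.0422). Its scaled signal was 262, 450 and 473 in void, 304, 315 and 343 with WT, 249, 429 and 338 with D361E, 447, 276 and 249 with the N-fragment, 353, 308 and 266 with the C-fragment, and 432, 356, 458, 485 and 508 with N+C. All groups overlapped void. The values varied with the slide: slide 2 held 429 to 508 and slide 1 held 249 to 308. Slides 3, 4 and 5 held 262 to 356, 276 to 458 and 338 to 485. Slide 1 had no void or N+C array, and slide 2 had no WT or C-fragment array. The constructs on both slides were lower on slide 1, with D361E at 249 against 429 and the N-fragment at 249 against 447. The residual standard deviation was 0.32 log2 units with groups alone and 0.13 with groups and slide. With slide as a block the differences from void lay between -0.24 with the N-fragment and 0.23 with N+C (adjusted p 0.0947 to 0.96), so no call was gained.

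**Figure D4:**
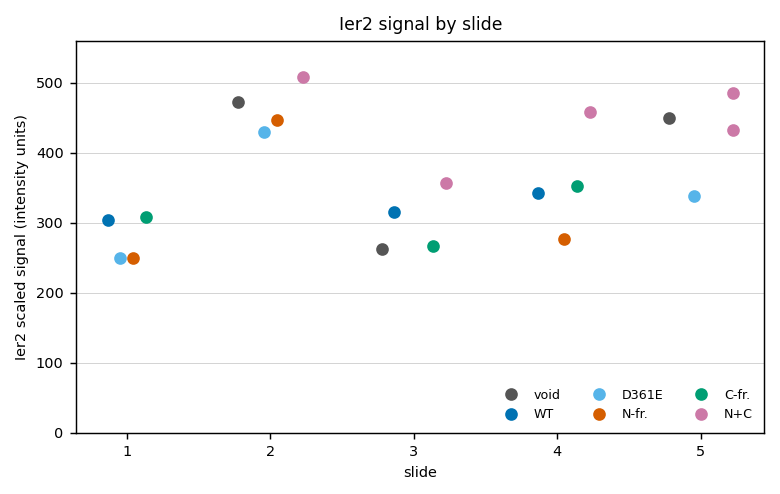
Scaled signal of Ier2 on the 20 arrays by slide, coloured by construct, on an axis that starts at 0. Each point is 1 array, and the arrays of slide 2 lie at 429 to 508 and those of slide 1 at 249 to 308.

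The fragments were compared with each other and with WT and D361E. Between the N-fragment and the C-fragment 7 members were called, all higher with the N-fragment, where 20.1% of all genes were called (9.99% higher): Egr1 (6.02-fold, log2 2.59 ± 0.56, adjusted p = 0.00342), Junb (2.58-fold, adjusted p = 0.00141), Jun (2.21-fold, adjusted p = 0.00175), Myc (1.81-fold, adjusted p = 0.00745), Fos (1.75-fold, adjusted p = 0.036), Fosl2 (1.74-fold, adjusted p = 0.00171) and Jund (1.27-fold, adjusted p = 0.00396). Against WT the N-fragment raised 5 members (27.3% of all genes called, 13.8% higher): Fos, Fosl2, Junb, Egr1 (4.27-fold, adjusted p = 0.0106) and Myc. The Junb call was lost without N-fragment replicate 1 (adjusted p = 0.0798). N+C raised 5 against WT (23.3% of all genes called, 13.6% higher): Fos, Fosl2, Jun, Egr1 (5.65-fold, adjusted p = 0.00183) and Myc. For Egr1 the difference was 3.46 on the log2 scale with arrays 16 to 18 alone and 1.06 with arrays 19 and 20 alone, both called. With only those 2 groups in the fit, the calls of Egr1 (adjusted p = 0.0579), Myc (adjusted p = 0.0796) and Jun (adjusted p = 0.0988) were lost. Between N+C and the N-fragment, Junb was the single member called (log2 -0.72 ± 0.24, adjusted p = 0.0409, 22.1% of all genes called, 9.52% lower). The Myc difference there was -0.46 with a 95% interval of -0.86 to -0.07 (adjusted p = 0.0894), and that of Egr1 was 0.40 with an interval of -0.67 to 1.47. Adding the C-fragment to the N-fragment thus left differences whose intervals are wide, and they differ by set of arrays. N+C exceeded the C-fragment in 5 members (Fos, Fosl2, Jun, Jund and Egr1, 17.3% of all genes called, 10.5% higher). D361E was below the N-fragment in 5 (Fos, Fosl2, Jun, Egr1 and Myc, 24.5% of all genes called, 10.9% lower) and below N+C in 6 with 2 above (20.4% of all genes called, 10.3% lower and 10.1% higher). Against the C-fragment it was higher for Junb and Ier3 and lower for Myc (9.57% of all genes called, 5.62% higher and 3.95% lower).

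Rela itself gave a scaled signal of 17800 to 18500 in void and 21200 to 26100 with the N-fragment (log2 0.36 ± 0.07, adjusted p = 0.00089), and 17900 to 21700 in the other groups. Rela was not called against void with WT, D361E, the C-fragment or N+C (log2 0.07, 0.08, 0.08 and 0.18, adjusted p 0.0512 to 0.571). The fibroblast markers that stood higher with the N-fragment were Col1a1 (log2 3.55 ± 0.78, adjusted p = 0.00237) and Pdgfra (log2 1.25 ± 0.29, adjusted p = 0.00343). Thy1 was not above background on any void or N-fragment array. Of the other markers, Itgam was lower with the N-fragment (log2 -0.94 ± 0.30, adjusted p = 0.0235), as was the melanocyte gene Tyr (log2 -0.70 ± 0.07, adjusted p = 2.06e-06), while Mitf was higher (log2 0.44 ± 0.07, adjusted p = 0.000232). The part of these genes in the N-fragment results was not tested.

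Genes around the members were taken as lists of known partners, regulators and targets. For each list and construct, at most the 2 called genes with the largest difference in each direction are named, so a gene may have been called with further constructs. For comparison, 3.22% of all genes were called higher and 6.16% lower with WT, 6.04 and 7.44% with D361E, 13.2 and 17.9% with the N-fragment, 4.88 and 8.25% with the C-fragment, and 11.8 and 12.8% with N+C. The median difference of all genes lay between -0.06 and -0.02. Of 13 AP-1 partners, all measured, 2 rose and 1 fell with WT, 2 and 3 with D361E, 3 and 1 with the N-fragment, 1 and 1 with the C-fragment, and 5 and 1 with N+C (medians -0.01, -0.04, 0.14, -0.04 and 0.12). Arrays 16 to 18 alone gave 3 higher and 3 lower (median 0.18), and arrays 19 and 20 alone 7 and 1 (median 0.50). Maff, a small MAF protein that lacks an activation domain, rose with every construct. It read 70.5 to 81.3 in void, 604 to 655 with the N-fragment (log2 3.05 ± 0.11, adjusted p = 1.44e-11), 288 to 312 on arrays 16 to 18 and 222 to 254 on arrays 19 and 20. Atf3, a stress-induced repressor of the ATF family, fell with D361E (log2 -1.10 ± 0.13, adjusted p = 3.42e-05) and the C-fragment (log2 -1.43 ± 0.13, adjusted p = 5.1e-06). Jdp2, which represses AP-1 sites as a dimer with JUN, rose with WT (log2 0.68 ± 0.11) and D361E (log2 0.61 ± 0.11). Batf3, a partner of JUN in lymphoid and dendritic cells, fell with WT (log2 -0.72 ± 0.13) and D361E (log2 -0.47 ± 0.13) and rose with the N-fragment (log2 0.79 ± 0.13). Fosb rose with N+C (log2 0.76 ± 0.23, adjusted p = 0.0216), a call that arrays 16 to 18 alone did not give (log2 0.60, adjusted p = 0.0826).

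The other early response genes moved mostly up with the N-fragment. Of 23, 20 were measured (Ptgs2, Gem and Arc were not): 12 rose and 1 fell with the N-fragment, 7 and 4 with N+C, 1 and 6 with WT, 3 and 3 with D361E, and 1 and 5 with the C-fragment (medians 0.38, 0.22, -0.29, 0.02 and -0.21). Arrays 16 to 18 alone gave 12 and 5, and arrays 19 and 20 alone 7 and 6, with medians of 0.39 and -0.01. Ccn1, a secreted matrix protein, read 666 to 855 in void, 2930 to 3240 with the N-fragment (log2 2.00 ± 0.12, adjusted p = 3.5e-09) and 3570 to 4730 with N+C (log2 2.43 ± 0.11, adjusted p = 2.74e-10), and rose with D361E too (log2 0.98 ± 0.12). Sgk1, a kinase induced by serum, rose with the N-fragment (log2 1.76 ± 0.14) and Klf2, a zinc finger factor, with N+C (log2 1.09 ± 0.19, with 1.34 on arrays 16 to 18 and 0.70 on arrays 19 and 20). The anti-proliferative gene Tob1 fell with all 5 constructs, from 3000 to 3560 in void to 1190 to 1350 with the N-fragment (log2 -1.32 ± 0.07, adjusted p = 5.6e-10). Its relative Btg1 fell with WT (log2 -0.51 ± 0.12), D361E (log2 -0.44 ± 0.12), the C-fragment (log2 -0.72 ± 0.12) and N+C (log2 -0.92 ± 0.11). The kinase gene Plk3 rose with WT (log2 0.34 ± 0.09), D361E (log2 0.29 ± 0.09) and the C-fragment (log2 0.73 ± 0.09). Its levels were also above void (696 to 843) with the N-fragment (1190 to 1370) and N+C (1320 to 1530).

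Of 18 factors and kinases upstream of early genes, all measured, 0 rose and 2 fell with WT, 1 and 1 with D361E, 2 and 5 with the N-fragment, 1 and 1 with the C-fragment, and 3 and 0 with N+C (medians -0.10, 0.04, -0.10, -0.01 and -0.06). With arrays 16 to 18 alone 3 were higher and 3 lower, and with arrays 19 and 20 alone 4 and 0. At an unadjusted p under 0.05 in limma, 1 was higher with WT and 2 were lower with N+C. Elk3, a partner of serum response factor, rose with D361E (log2 0.46 ± 0.10), the N-fragment (log2 0.83 ± 0.10), the C-fragment (log2 0.48 ± 0.10) and N+C (log2 0.80 ± 0.09). Srf itself rose with N+C (log2 0.74 ± 0.11), and its coactivator Mrtfa fell with WT (log2 -0.30 ± 0.09), D361E (log2 -0.32 ± 0.09) and the C-fragment (log2 -0.41 ± 0.09). With WT Elk1 fell as well (log2 -0.35 ± 0.09). Its probe was very bright, at 269000 to 292000 in void and 204000 to 226000 with WT, near the signal of Ldha (209000 to 236000 in void). The effect of scaling was examined for the members only, so it is not known for this call. With the N-fragment Creb1 rose (log2 0.33 ± 0.08), while Rps6ka1 (log2 -0.87 ± 0.31) and Mapk3, which codes for the kinase ERK1 (log2 -0.46 ± 0.10), fell.

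**Figure D5:**
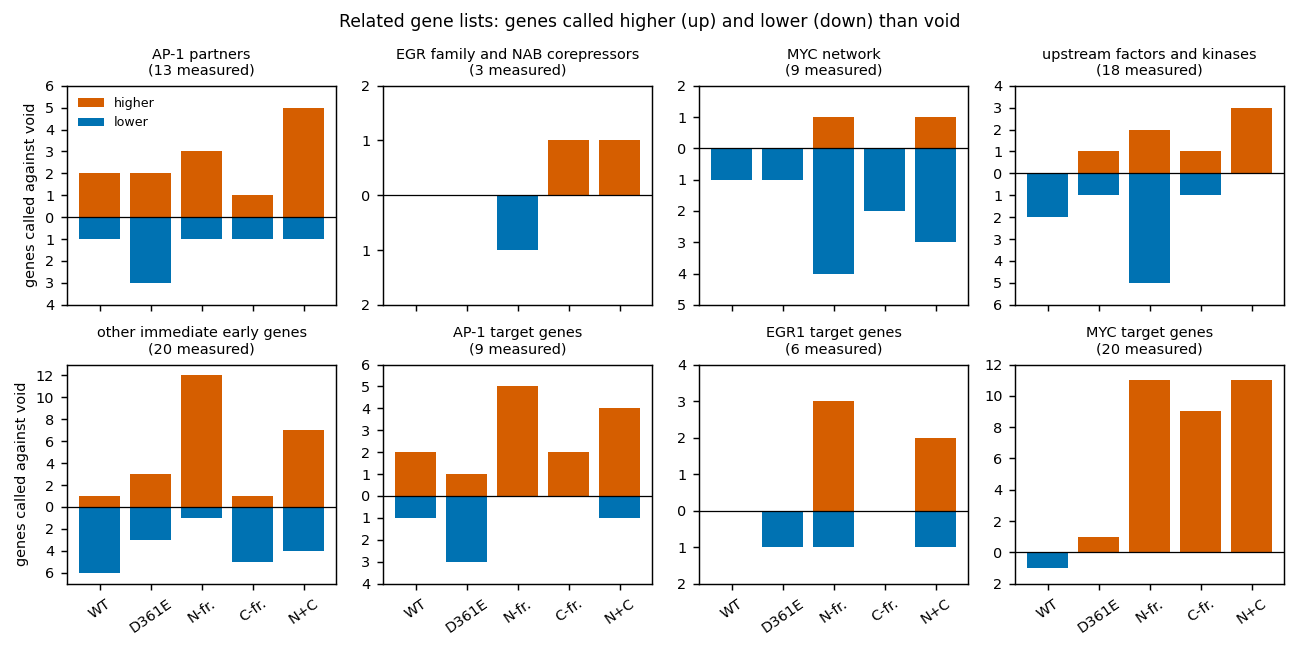
Number of genes called higher (upward bars) and lower (downward bars) than void for the 5 constructs in each of 8 gene lists, with the number measured above each panel and a separate count axis per panel. The other early response genes have 12 higher and 1 lower with the N-fragment, and the MYC targets 11, 9 and 11 higher with the N-fragment, the C-fragment and N+C.

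Around Egr1, 3 of 5 genes of its family and of the NAB corepressors were measured (Egr2, Nab1 and Nab2, while Egr3 and Egr4 were not), and 0 were called with WT or D361E, also at an unadjusted p under 0.05 in limma. Egr2 was well above background on 3 N+C arrays but on no void, WT or D361E array, so those comparisons could not judge it. Nab2, which EGR1 induces and which represses it, read 3480 to 3590 in void, 5440 to 6220 on arrays 16 to 18 and 4770 to 4850 on arrays 19 and 20 (log2 0.59 ± 0.07 with N+C, adjusted p = 2.98e-05). It rose with the C-fragment as well (log2 0.28 ± 0.08, adjusted p = 0.0355). Egr1 was not called there in the main fit, but was called higher in the limma fit without the N+C arrays (adjusted p = 1.68e-05). Void Egr1 was at background, so that call gives a direction, with only the lower bound above for its size. A link to Nab2 was not tested. Nab2 was not called with the N-fragment (log2 0.11 ± 0.08, adjusted p = 0.352), where Egr1 rose. Nab1 fell with the N-fragment (log2 -0.24 ± 0.05). Of 8 EGR1 targets 6 were measured (Gdf15 and Fgf2 were not): 3 rose and 1 fell with the N-fragment, 2 and 1 with N+C, 0 and 1 with D361E, and 0 were called with WT or the C-fragment. At an unadjusted p under 0.05 in limma, 2 were higher and 0 lower with WT, and 0 higher and 1 lower with the C-fragment. Pdgfa, a growth factor gene, read 3900 to 4290 in void, 14900 to 18700 with the N-fragment (log2 1.99 ± 0.13, adjusted p = 1.81e-08), 8120 to 9100 on arrays 16 to 18 and 5910 to 6610 on arrays 19 and 20. The order of its levels differed from that of Egr1, which was higher on arrays 16 to 18 than with the N-fragment. Pdgfb rose with the N-fragment (log2 2.82 ± 0.38, adjusted p = 2.97e-05), with 1 of 3 void arrays well above background. Among EGR1 targets, arrays 16 to 18 alone gave 2 higher and 2 lower, and arrays 19 and 20 alone 3 and 1. F3, the tissue factor gene, rose with the N-fragment (log2 0.92 ± 0.21) and with N+C (log2 0.78 ± 0.18, with 1.11 and 0.27 in the 2 sets). Vegfa fell with D361E (log2 -1.40 ± 0.15), the N-fragment (log2 -0.82 ± 0.15) and N+C (log2 -0.78 ± 0.13).

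Of 15 AP-1 targets 9 were measured, and Mmp3, Mmp9, Mmp10, Mmp13, Plau and Spp1 were not. With the N-fragment 5 rose and 0 fell (6 and 0 at an unadjusted p under 0.05 in limma), with N+C 4 and 1, with WT 2 and 1, with D361E 1 and 3, and with the C-fragment 2 and 0, the same numbers as without adjustment (medians 0.39, 0.22, -0.01, 0.00 and 0.04). Arrays 16 to 18 alone gave 5 and 3, and arrays 19 and 20 alone 6 and 1. Hbegf, a growth factor that activates the EGF receptor, read 386 to 426 in void, 627 to 702 with the N-fragment, 1040 to 1140 on arrays 16 to 18 and 623 to 667 on arrays 19 and 20 (log2 0.69 ± 0.18 with the N-fragment and 1.11 ± 0.16 with N+C). The cyclin gene Ccnd1 fell with WT (log2 -0.30 ± 0.09) and D361E (2.01-fold, adjusted p = 1.18e-06). It rose with the N-fragment (log2 0.42 ± 0.09) and N+C (log2 0.78 ± 0.08, adjusted p = 3.31e-06). Timp1, an inhibitor of matrix proteases, fell with D361E (from 1440 to 1540 in void to 406 to 500, log2 -1.77 ± 0.15) and N+C (log2 -1.36 ± 0.13). Cd44, an adhesion receptor, rose with WT (log2 0.30 ± 0.09), D361E (log2 0.53 ± 0.09), the N-fragment (log2 0.81 ± 0.09), the C-fragment (log2 0.27 ± 0.09) and N+C (log2 0.66 ± 0.08). The integrin gene Itgav rose with WT (log2 0.32 ± 0.07) and the C-fragment (log2 0.27 ± 0.07). Its levels were also above void (309 to 321) with the N-fragment (379 to 406) and N+C (445 to 484).

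Of 12 MYC network genes 9 were measured (Mycn, Mycl and Mxi1 were not), and most calls were falls: 0 rose and 1 fell with WT and with D361E, 1 and 4 with the N-fragment, 0 and 2 with the C-fragment and 1 and 3 with N+C (medians -0.12, -0.14, -0.30, -0.13 and -0.16). No further member was higher with WT, D361E or the C-fragment at an unadjusted p under 0.05 in limma. Mxd4, a MAX partner that opposes MYC, read 2800 to 3180 in void, 899 to 1070 with WT, 1000 to 1120 with D361E, 721 to 812 with the N-fragment and 701 to 780 with the C-fragment. Arrays 16 to 18 read 1510 to 1600 and arrays 19 and 20 762 to 865. It fell with all 5 constructs, most with the C-fragment (4.01-fold, adjusted p = 3.27e-05). Mxd1 fell with the C-fragment (log2 -0.58 ± 0.17) and N+C (log2 -0.78 ± 0.15), and Mnt fell with the N-fragment (log2 -0.77 ± 0.10) and N+C (log2 -0.51 ± 0.09). Mxd3 rose with the N-fragment (log2 0.44 ± 0.13) and N+C (log2 0.51 ± 0.12).

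Of 20 MYC targets, all measured and mostly genes of ribosome and polyamine synthesis, 11 rose with the N-fragment, 9 with the C-fragment and 11 with N+C, and 0 fell (1 was lower with the C-fragment at an unadjusted p under 0.05 in limma). With WT 0 rose and 1 fell, and with D361E 1 rose and 0 fell, with 0 and 1 in WT and 3 and 2 in D361E without adjustment. The medians were 0.32, 0.29, 0.30, -0.02 and 0.05. The C-fragment count stands beside a Myc difference of 0.18 ± 0.21 (adjusted p = 0.61), arrays 19 and 20 alone gave 12 higher and 0 lower beside a Myc difference of 0.05, and arrays 16 to 18 alone gave 8 and 1 beside a Myc difference of 0.92. Odc1, the first enzyme of polyamine synthesis, read 15700 to 16900 in void, 29800 to 35400 with the N-fragment (log2 0.99 ± 0.09, adjusted p = 4.99e-07), 22000 to 24400 on arrays 16 to 18 and 26300 to 28000 on arrays 19 and 20. It rose with D361E too (log2 0.32 ± 0.09), where Myc fell. The nucleolar genes Ncl (log2 0.63 ± 0.11 with the N-fragment), Nop58 (log2 0.48 ± 0.10 with the C-fragment), Nolc1 (log2 0.42 ± 0.10 with the C-fragment) and Ppan (log2 0.51 ± 0.05 with N+C) rose, and Ldha, a glycolysis enzyme gene, fell with WT (log2 -0.37 ± 0.08).

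Over the 20 arrays, which share constructs, some members ran together. Pearson's r and Spearman's rho were 0.91 and 0.90 for Fos and Fosl2, 0.89 and 0.78 for Fosl2 and Myc, 0.85 and 0.69 for Fosl2 and Egr1, 0.85 and 0.82 for Jun and Jund, and 0.84 and 0.75 for Fos and Myc. The lowest pair was Egr1 and Ier3 (-0.45 and -0.47). Outside the list, the 2 named genes with the highest Pearson r were Chsy1 (0.95) and Akap12 (0.94) for Fos, Jag1 and Bcl2l1 (0.96 each) for Fosl2, Ttc39a (0.95) and Ckb (0.94) for Jun, and Uchl1 (0.84) and Arhgef10 (0.83) for Junb. They were Arhgef10l (0.92) and Gnat2 (0.90) for Jund, Hdac4 (0.95) and Nfil3 (0.94) for Egr1, Map2k3os and Cttn (0.96 each) for Myc, Zbtb42 (0.82) and Chfr (0.81) for Ier3, and Zfp646 (0.94) and Bag6 (0.93) for Ier2. Those for Ier2 followed a gene whose values went with the slide. These values describe 20 arrays of 6 groups and carry no test.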

How the data were processed

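The authors deposited intensity values of 1-colour Agilent arrays (44397 features) with background subtracted within each array. The submitters' processing notes name Agilent Feature Extraction 10.7.3.1 as the software. There were, per the file headers, 5 slides, each with 4 of the 20 arrays, and 1 scan day. All 887940 values of the deposited series table equal the processed signal, so that table holds no scaling between arrays. Probes were named by accession through a RefSeq table: 28663 of 39429 (72.7%) received a symbol.

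Fits used limma (version 3.58.1, R 4.3.3). On each array 98 to 285 outlier spots were dropped, and saturation was not seen. Log2 processed signal minus each array's 75th percentile was used, a percentile that differed up to 1.45-fold. Probes well above background on at least 3 arrays were kept (23432), with the brightest probe per gene. One model with 6 groups was fitted to all arrays. The Benjamini-Hochberg adjustment ran within each comparison. The fit was tested on simulated data. Motifs were searched in RefSeq promoter windows of GRCm38.p6.

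Named genes are the members, up to 2 called genes per direction, list and comparison with void that had the largest difference and groups that did not overlap, the 2 most correlated genes per member, and Rela. Genes of lists or markers that were not measured are named as well, except 1 marker that is not reported here. Members, lists and alternatives were chosen with earlier results of these data known. Alternatives covered normalization, background correction, filters, probes, groups in the fit, slide, and arrays left out. Normexp with an offset of 50 was run on median spot signals, since the files used here hold no mean signal. It was followed by quantile normalization in place of scaling to the 75th percentile. This setting was added after the files were seen, as were the list counts by set of N+C arrays.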

Additional observations from a re-analysis of the deposited data

How the results depend on the processing

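Of 35 called member differences in 9 comparisons (5 against void, 4 against WT), 16 kept their direction and call under each of the 17 to 19 alternatives run for them. Both reversals came from the deposited table without scaling, where the median difference of all genes was 0.37 with WT and 0.28 with the N-fragment, against -0.03 and -0.06 after scaling: Jund, WT against void, 0.09, and Ier3, N-fragment against void, 0.08. Of 46 differences not called, 19 were called under at least 1 alternative. The number of members called for WT against void (3) was 0 after normexp and quantile normalization (2 at an unadjusted p under 0.05 in limma), 1 without scaling, 1 with slide as a block, and 5 without arrays 16 to 18, without arrays 19 and 20 or without all N+C arrays. For D361E against void (5) it was 3 without a filter and 3 with slide as a block. For D361E against WT (1) it was 2 after quantile normalization, 2 without scaling, 0 without a filter, 0 with slide as a block (4 and 3 unadjusted), and 5 in each of the 3 fits without N+C arrays. For C-fragment against WT (1) it was 4 with only the groups of the comparison, 3 without arrays 16 to 18, 4 without arrays 19 and 20 and 3 without N+C. N-fragment against WT (5) gave 3 when probes had to be above background on all arrays, which removes Egr1 and Junb. N+C against void (6) and against WT (5) each gave 3 with only the groups of the comparison. Leaving out 1 array at a time gave 0 to 3 for WT against void (0 without void replicate 2, void replicate 3 or WT replicate 2, with 4 or 5 unadjusted) and 0 to 1 for D361E against WT (2 or 3 unadjusted where 0). It gave 3 to 4 for D361E against void, 4 to 6 for the N-fragment, 3 to 4 for the C-fragment, and 4 to 6 for N+C, all against void. Against WT it gave 4 to 5 for the N-fragment, 1 for the C-fragment and 4 to 5 for N+C. Causes were not tested, other than fewer arrays or genes in a fit. No paired analysis was possible because sample titles number the arrays in 1 series across groups. Dim probes limit Junb and Egr1, and Fosl1 could not be compared.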
